A study of Mus musculus with 56 samples.

Results

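Pparg, Cd36, Vldlr, Fabp4 and Mogat1 are genes of fatty acid uptake and storage linked to the nuclear receptor PPARG in fatty liver. They were taken by gene symbol from the deposited table of gene counts, which gave 5 of 21935 genes, and all 5 passed the filter on low counts that left 14105 genes for testing. The table held RNA-seq read counts from the livers of 56 male C57BL/6J mice in 7 groups of 8. Chow-fed mice received vehicle, the solution without a drug. Mice with diet-induced obesity and metabolic dysfunction-associated steatohepatitis (DIO-MASH) had eaten AMLN diet, high in fructose, fat and cholesterol, for 36 weeks before dosing. Daily injections under the skin then ran for 8 weeks with vehicle, with zalfermin (0.05 mg/kg as the low and 0.2 mg/kg as the high dose), with semaglutide (3 µg/kg as the low and 120 µg/kg as the high dose) or with zalfermin + semaglutide. Semaglutide activates the GLP-1 receptor, and zalfermin mimics FGF21, a liver hormone. The mice arrived at 5 to 6 weeks of age, with no engineered allele named in the labels, and the study's methods describe a liver biopsy and single housing before dosing. The combination is given in the study's methods as both low doses, whereas the series' design text names both high doses, and the sample labels give no dose. It was treated here as both low doses, and comparisons that set the combination beside a single dose rest on that reading.

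PPARG is a nuclear receptor that pairs with a retinoid X receptor and drives genes of lipid uptake and storage. It is the master regulator of fat cells, is low in lean liver and rises in steatotic liver. CD36 carries fatty acids across the plasma membrane, the VLDL receptor (Vldlr) takes up triglyceride-rich lipoprotein particles, FABP4 binds fatty acids inside cells, and MOGAT1 joins a fatty acid to monoacylglycerol on the way to triacylglycerol. FABP4 is also made by endothelial cells, macrophages and fat cells, and CD36 by macrophages and endothelial cells, so liver tissue holds several possible sources of both transcripts. In these whole-liver samples, fewer cells of a type and less RNA per cell cannot be told apart.

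In the GRCm38 build (GENCODE vM21), Pparg spans chr6:115360951-115490399 on the plus strand, Cd36 chr5:17781690-17888801 on the minus strand, Vldlr chr19:27216484-27254231 on the plus strand, Fabp4 chr3:10204088-10208576 on the minus strand and Mogat1 chr1:78510991-78538173 on the plus strand. All are protein-coding. Mogat1 overlaps BC035947 on the opposite strand, which had 0 to 16 reads per mouse. Pparg overlaps the antisense gene Gm44079, which is not among the genes of the table. The library kit keeps strand, but whether the counting used it is not given in the sources used here. The set of RefSeq start sites used here (GRCm38.p6) had entries for 4 of the 5 genes and none for Fabp4. The 250 bases before 1 start of each are shown because PPARG acts by binding DNA near its target genes. The capitals mark AGGTCA, the motif that nuclear receptors of this family bind, on either strand. The Cd36 window lies wholly inside the gene span given above, and the Pparg and Mogat1 windows lie partly inside theirs.

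Pparg, chr6:115360894-115361143, plus strand: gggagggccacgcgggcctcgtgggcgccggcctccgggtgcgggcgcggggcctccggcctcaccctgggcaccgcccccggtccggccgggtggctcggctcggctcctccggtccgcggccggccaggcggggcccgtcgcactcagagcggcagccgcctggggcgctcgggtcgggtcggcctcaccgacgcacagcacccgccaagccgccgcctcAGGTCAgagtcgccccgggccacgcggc
Cd36, chr5:17835897-17836146, minus strand: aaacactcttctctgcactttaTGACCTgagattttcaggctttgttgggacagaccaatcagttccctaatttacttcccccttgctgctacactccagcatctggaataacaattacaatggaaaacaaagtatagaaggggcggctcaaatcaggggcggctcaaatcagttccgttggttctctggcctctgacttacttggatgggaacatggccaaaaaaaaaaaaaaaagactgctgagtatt
Vldlr, chr19:27216234-27216483, plus strand: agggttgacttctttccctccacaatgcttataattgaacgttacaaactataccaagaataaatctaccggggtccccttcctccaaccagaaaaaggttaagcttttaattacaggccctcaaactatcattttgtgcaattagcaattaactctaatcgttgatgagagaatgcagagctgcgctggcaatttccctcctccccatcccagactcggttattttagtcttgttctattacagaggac
Mogat1, chr1:78510810-78511059, plus strand: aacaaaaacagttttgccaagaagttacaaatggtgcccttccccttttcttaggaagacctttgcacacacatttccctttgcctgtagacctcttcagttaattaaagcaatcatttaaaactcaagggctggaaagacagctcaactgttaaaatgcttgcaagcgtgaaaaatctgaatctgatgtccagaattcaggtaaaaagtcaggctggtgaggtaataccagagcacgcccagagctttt

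This motif occurred once in the Pparg window, beginning 28 bases before the start, and once in the Cd36 window, on the reverse strand and 228 bases before the start. It did not occur in the Vldlr or Mogat1 window. Of all 32851 windows of this length, 14% held it. The full PPAR element (DR1), the same motif repeated in the same direction after 1 base of any kind, was searched on both strands and occurred in none of the windows of the 4 genes and in 0.0335% of all windows. These are matches of letters in a short window, and the gene counts do not separate transcripts from different starts. The set of start sites lists 3 for Pparg and 2 for Vldlr. Among the Pparg windows not shown, chr6:115362099-115362348 also held the motif, beginning 9 bases before its start, and chr6:115421816-115422065 did not. The Vldlr window not shown did not hold it.

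Each mouse had 5228187 to 20885786 counted reads (median 12206788). Levels are CPM, the reads of a gene scaled to a common library total, after adjustment by trimmed mean of M-values (TMM), and differences are log2 fold changes from 1 edgeR quasi-likelihood fit of all 7 groups, with standard errors (SE) and Benjamini-Hochberg adjusted p-values over all 14105 genes. A difference is called where the adjusted p is under 0.05. The labelled tissue fitted the reads, since the 8 hepatocyte markers chosen, albumin (Alb) among them, summed to medians of 75300 to 166100 CPM by group. Mouse 6 of low-dose semaglutide stood apart: its mean rank correlation over genes was 0.967 with its own group and 0.974 with the chow-fed mice, while the other 7 mice of its group had 0.981 to 0.986 with their own group. The study excluded 1 mouse of this group without naming it, so all 56 mice were kept, and calls of the 5 genes that change without mouse 6 are given both ways.

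All 5 genes were higher in DIO-MASH livers than in chow-fed livers, and by very different amounts. Mogat1 differed most, at 12.1-fold, followed by Fabp4 (7.83-fold) and Cd36 (5.28-fold), while Vldlr (1.67-fold) and Pparg itself (1.66-fold) differed least. Each of the 5 was called, where 28.9% of all genes tested were lower in chow-fed than in DIO-MASH vehicle mice. The median log2 fold change of chow-fed against DIO-MASH vehicle was -2.40 over the 5 genes and -0.01 over all genes.

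**Figure D1:**
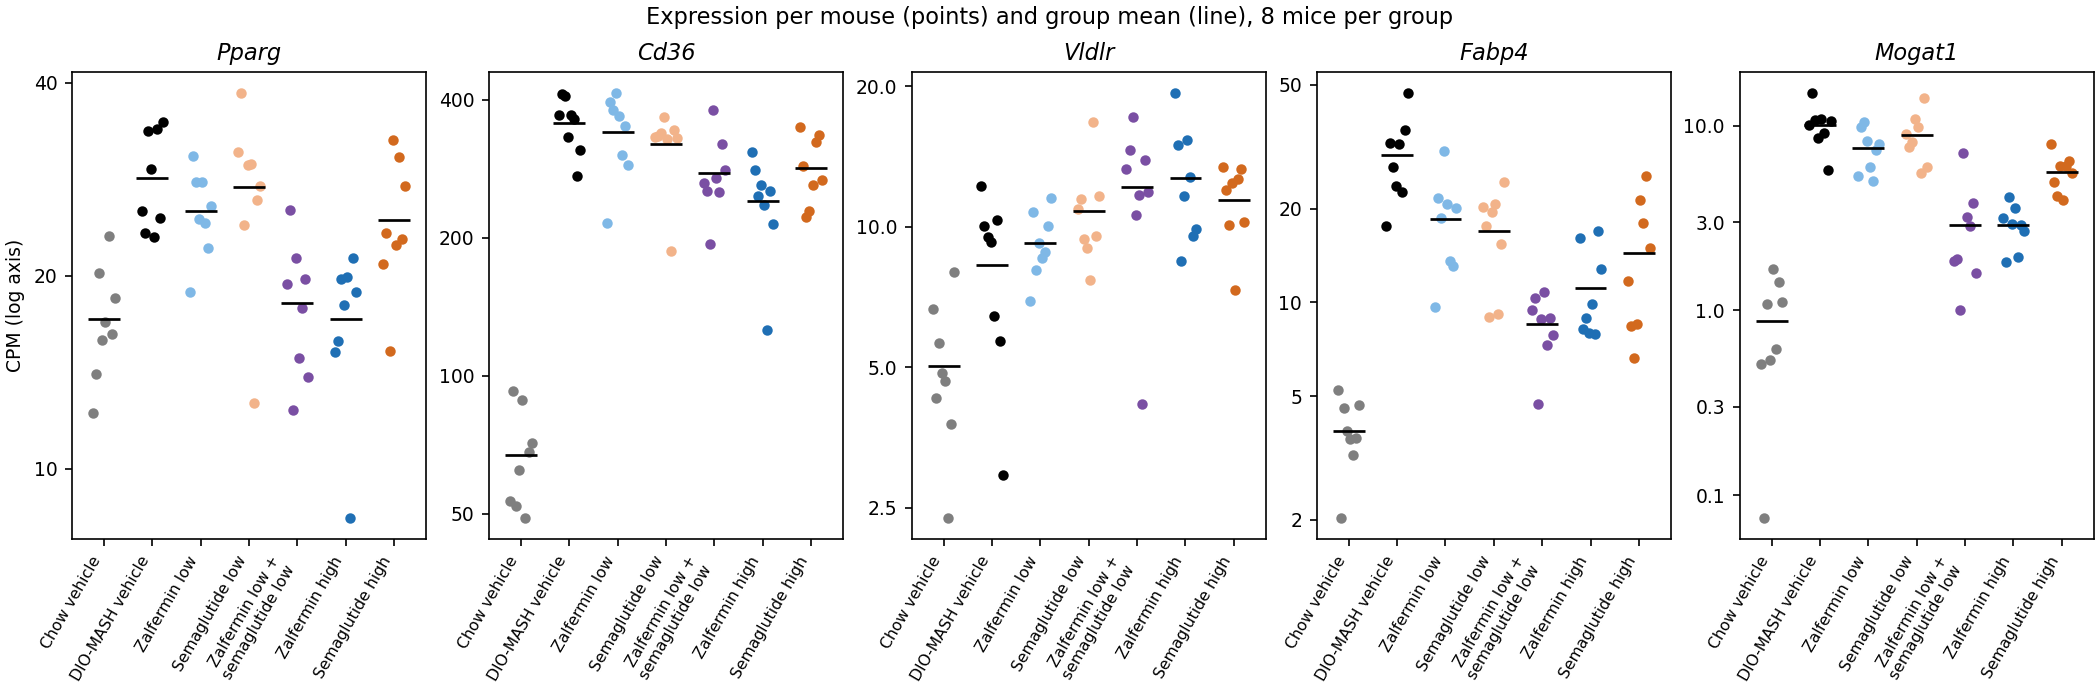
Each point is the level of 1 gene in 1 mouse, in CPM on a log axis, and each line is the mean of a group of 8 mice. Chow-fed mice lie below all DIO-MASH vehicle mice for Cd36, Fabp4 and Mogat1, and the mean of each treated group lies below the vehicle mean for every gene but Vldlr, whose mean was 8.30 CPM with vehicle and 12.7 CPM with high-dose zalfermin.

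Pparg ranged from 12.2 to 23.05 CPM in chow-fed mice (median 16.6) and from 22.95 to 34.7 CPM in DIO-MASH vehicle mice (median 27.3). The groups met at their edges, with the highest chow-fed mouse just above the lowest vehicle mouse. Its log2 fold change in chow-fed mice was -0.73 (SE 0.16, edgeR adjusted p = 0.000144).

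Of the uptake receptors, Cd36 had a clear gap between the groups, with 49.02 to 92.8 CPM in chow-fed mice (median 65.3) and 273.1 to 412.6 CPM in DIO-MASH vehicle mice (median 367.1). Vldlr overlapped, with 2.38 to 8.00 CPM (median 4.77) against 2.94 to 12.2 CPM (median 9.40). The lowest vehicle mouse, mouse 8, had 34 Vldlr reads, within the 26 to 65 reads of the chow-fed mice. The log2 fold changes were -2.40 for Cd36 (SE 0.15, edgeR adjusted p = 8.2e-18) and -0.74 for Vldlr (SE 0.22, edgeR adjusted p = 0.00358).

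Fabp4 lay between 2.03 and 5.23 CPM in chow-fed mice (median 3.77) and between 17.5 and 46.8 CPM in DIO-MASH vehicle mice (median 29.8). Mogat1 lay between 0.0753 and 1.67 CPM (median 0.851), which was 1 to 16 reads per mouse, and between 5.75 and 14.9 CPM (median 10.3). No chow-fed mouse reached any vehicle mouse for either gene. Groups without overlap, lower in chow-fed mice, were seen for 3 of the 5 genes (Cd36, Fabp4 and Mogat1) and for 9.49% of all genes. The log2 fold changes were -2.97 for Fabp4 (SE 0.26, edgeR adjusted p = 2.46e-13) and -3.59 for Mogat1 (SE 0.31, edgeR adjusted p = 1.73e-13).

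Cell type markers moved with the same contrast. Macrophage markers (10 genes) summed to 284.8 to 586.6 CPM in DIO-MASH vehicle mice and 75.6 to 452.8 CPM in chow-fed mice, with 7 of 10 lower and 1 higher in chow-fed mice, and stellate cell markers (8 genes) summed to 426.3 to 674.2 and 92.3 to 178.8 CPM, with 5 of 8 lower and 1 higher. Endothelial markers (8 genes) moved less, at 193.3 to 271.9 and 171.2 to 257 CPM, with 6 of 8 lower and 1 higher. Hepatocyte markers went the other way, at 64290 to 87790 CPM with vehicle and 144800 to 243900 CPM in chow-fed mice, with 8 of 8 higher. Of all genes tested, 28.9% were lower and 26.5% higher in chow-fed mice. The part of these markers in the differences of the 5 genes was not tested. Of the 8 fat cell markers, the summed level was 27.4 to 50.2 CPM with vehicle and 12.6 to 28.9 CPM with chow, most of it from Lipe and Cfd, and 3 of the 8 passed the filter. Cfd was lower in chow-fed mice (log2 fold change -4.87) and with the combination (-5.20). Cfd had up to 443 reads in a mouse, Lipe up to 426 and Adrb3 up to 47. The other fat cell markers had few reads in any mouse. Adiponectin (Adipoq) had at most 6, leptin (Lep) at most 2, perilipin 1 (Plin1) at most 3, Retn at most 2 and Slc36a2 at most 4. Lep had no read in DIO-MASH vehicle or chow-fed mice.

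High-dose zalfermin changed all 5 genes against DIO-MASH vehicle, 4 of them downwards and Vldlr upwards. All treated groups were set against the same 8 vehicle mice, and these also served in the comparison with chow, so the differences from vehicle are not independent of each other. Of all genes tested, 8.68% were called lower and 8.54% higher in this comparison. Mogat1 was 3.48-fold lower, Fabp4 2.69-fold lower, Pparg 1.65-fold lower and Cd36 1.48-fold lower, and Vldlr was 1.52-fold higher. The median log2 fold change was -0.72 over the 5 genes and -0.02 over all genes.

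Pparg fell to 8.38 to 21.3 CPM (median 18.4), with no overlap with the vehicle mice, and its log2 fold change was -0.72 (SE 0.16, edgeR adjusted p = 0.000931). Mogat1 (1.82 to 4.10 CPM, median 2.93, log2 fold change -1.80, SE 0.27) and Fabp4 (7.90 to 16.96 CPM, median 9.36, log2 fold change -1.43, SE 0.24) likewise had every treated mouse below every vehicle mouse. Such a gap, with treated mice lower, was seen for 3 of the 5 genes and 2.47% of all genes. Cd36 (126.2 to 308.5 CPM, median 249.6) overlapped with vehicle and had a log2 fold change of -0.56 (SE 0.14, edgeR adjusted p = 0.0039).

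Vldlr in high-dose zalfermin mice ranged from 8.46 to 19.3 CPM (median 12.2), and 0 of 8 mice were as low as the 3 lowest vehicle mice. Its log2 fold change was 0.61 (SE 0.21, edgeR adjusted p = 0.0355). This adjusted p was the highest of the 5, and the call was lost when libraries were scaled by their totals alone, with a log2 fold change of 0.41 (adjusted p = 0.151), and when only the groups compared were fitted (adjusted p = 0.0559). It was also lost in 6 of the 56 fits that each left out 1 mouse, namely vehicle mouse 5, 7 or 8 or zalfermin mouse 1, 2 or 5, with the highest adjusted p without zalfermin mouse 1 (0.50, adjusted p = 0.1001) and the smallest difference without vehicle mouse 8 (0.48, adjusted p = 0.0893).

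The combination lowered Pparg, Fabp4 and Mogat1 and raised Vldlr against DIO-MASH vehicle, while Cd36 was not called. Of all genes, 10.9% were called lower and 10% higher. Fabp4 was 3.49-fold lower, the largest difference from vehicle of any treated group for this gene, Mogat1 3.404-fold lower and Pparg 1.56-fold lower, and Vldlr was 1.47-fold higher. The median log2 fold change was -0.64 over the 5 genes and -0.03 over all genes.

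Fabp4 in the combination mice (4.70 to 10.8 CPM, median 8.87) lay wholly below the vehicle mice, as did 1.89% of all genes, with a log2 fold change of -1.80 (SE 0.24, edgeR adjusted p = 1.68e-07). Mogat1 (1.002 to 7.07 CPM, median 2.38) overlapped with vehicle through 1 mouse, mouse 4, and had a log2 fold change of -1.77 (SE 0.26, edgeR adjusted p = 1.59e-06). Pparg (12.3 to 25.3 CPM, median 18.6) had a log2 fold change of -0.64 (SE 0.16, edgeR adjusted p = 0.00286). The distribution of Pparg overlapped with vehicle at its top.

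Cd36 in the combination mice (193.8 to 379.3 CPM, median 266.8) was 1.28-fold lower than with vehicle, a log2 fold change of -0.36 (SE 0.14, edgeR adjusted p = 0.064). It was called in 4 of the 56 fits that each left out 1 mouse (vehicle mouse 7, combination mouse 4, high-dose zalfermin mouse 6 and, with adjusted p = 0.0468, low-dose semaglutide mouse 6). Among the other alternatives, scaling by library totals called it (log2 fold change -0.58, adjusted p = 0.00279). The study, which used DESeq2 and excluded 1 mouse, lists Cd36 and Pparg as downregulated and Vldlr as upregulated with the combination. That list is from its fit without body weight. With body weight in the fit, its results put most treatment changes in liver metabolic markers down to weight loss. Its discussion still names lipid metabolism genes as changed after that adjustment. Body weight was not tested here. Vldlr (4.17 to 17.2 CPM, median 12.6) had a log2 fold change of 0.55 (SE 0.21, edgeR adjusted p = 0.0476). That call was lost in 10 of the 56 fits, namely without vehicle mouse 4, 5, 7 or 8 or combination mouse 1, 2, 3, 5, 7 or 8 (highest adjusted p without combination mouse 3: 0.47, adjusted p = 0.118), and in 5 of the 8 other alternatives, with scaling by library totals (0.34, adjusted p = 0.211), with only the groups compared (adjusted p = 0.103), without a filter (0.0591), with a stricter filter (0.0521) and with the series of neighbouring animal numbers in the model (0.51, adjusted p = 0.0786). Within 3 such series the mean log2 CPM difference of Vldlr was 0.31, -0.24 and 0.73, so 1 of 3 went the other way.

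**Figure D2:**
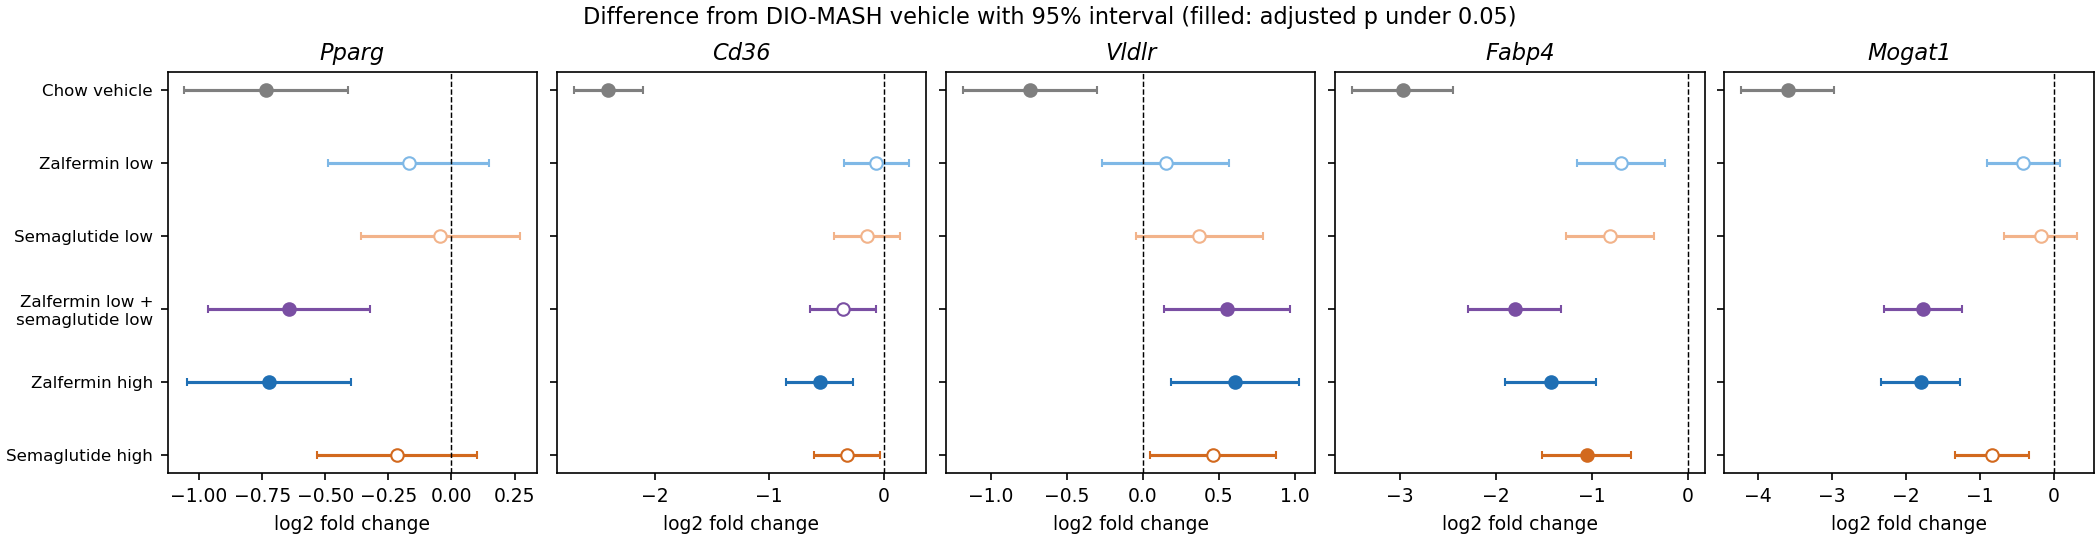
Each point is the log2 fold change of a group of 8 mice against the 8 DIO-MASH vehicle mice, with its 95% interval, and filled points have an edgeR adjusted p under 0.05. The horizontal scale differs between genes. Vldlr is the gene whose treated groups lie to the right of 0 while the chow-fed group lies to the left.

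High-dose semaglutide lowered 1 of the 5 genes, Fabp4, by 2.07-fold against vehicle (6.65 to 25.5 CPM, median 13.3). Its log2 fold change was -1.05 (SE 0.23, edgeR adjusted p = 0.00993), and 1% of all genes were called lower. Mogat1 (3.94 to 7.93 CPM, median 5.79) was 1.78-fold lower and just missed the threshold, with a log2 fold change of -0.83 (SE 0.25, edgeR adjusted p = 0.0572). It was called in 7 of the 56 fits that each left out 1 mouse, among them those without mouse 7 of its own group (adjusted p = 0.0418), vehicle mouse 7 (0.0388) and low-dose semaglutide mouse 6 (0.044), and by DESeq2 (adjusted p = 0.0288). The log2 fold changes of Pparg, Cd36 and Vldlr were -0.22, -0.32 and 0.46, with 95% intervals of -0.53 to 0.10, -0.61 to -0.03 and 0.05 to 0.87, and their edgeR adjusted p-values were 0.492, 0.236 and 0.238.

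Neither low dose changed any of the 5 genes past the threshold. Low-dose zalfermin had 0 of 5 genes called by edgeR and 0 by DESeq2, and 1 at an unadjusted p under 0.05. Of all 14105 genes, 0.468% were called by edgeR and 211 genes by DESeq2, and 1593 had an unadjusted p under 0.05. Low-dose semaglutide had 0 of 5 genes called by edgeR and 0 by DESeq2, 1 at an unadjusted p under 0.05, and 0% of all genes called by edgeR, where 1222 had an unadjusted p under 0.05 and DESeq2 called 32, or 0 without mouse 6 of that group. In both cases the gene with the low unadjusted p was Fabp4. Fabp4 ranged from 9.64 to 30.5 CPM with low-dose zalfermin (median 19.4; log2 fold change -0.69, SE 0.23, edgeR adjusted p = 0.171) and from 8.99 to 24.3 CPM with low-dose semaglutide (median 18.5; log2 fold change -0.81, SE 0.23, edgeR adjusted p = 0.271). Mogat1 was at 4.99 to 10.5 CPM (median 7.67) and 5.51 to 14.04 CPM (median 8.59), close to the vehicle range. The 95% intervals of Pparg were -0.49 to 0.15 with low-dose zalfermin and -0.36 to 0.27 with low-dose semaglutide.

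Stellate and hepatocyte markers also moved with treatment. The stellate sum was 170.4 to 349.2 CPM with the combination (5 of 8 markers lower, 0 higher) and 158.8 to 323.7 CPM with high-dose zalfermin (2 of 8 lower), against 426.3 to 674.2 CPM with vehicle. The hepatocyte sum was 90000 to 138300 CPM with the combination (5 of 8 markers higher) and 79660 to 139200 CPM with high-dose zalfermin (6 of 8 higher). The macrophage sum was 287.3 to 688.1 CPM with the combination (2 of 10 markers higher, 2 lower) and 339.3 to 521.3 CPM with high-dose zalfermin (1 of 10 higher, 3 lower), both overlapping with vehicle. The endothelial sum was 159.6 to 266.8 CPM with the combination (2 of 8 markers lower, 0 higher) and 189.1 to 283.7 CPM with high-dose zalfermin (0 of 8 called), also overlapping with vehicle. With high-dose semaglutide, 3 of 8 hepatocyte markers were higher (sum 68440 to 114900 CPM) and 1 of 8 stellate markers was lower (sum 214.9 to 671.2 CPM). In that group 0 of 10 macrophage and 0 of 8 endothelial markers were called. Of all genes, 10% were called higher and 10.9% lower with the combination, and 8.54% and 8.68% with high-dose zalfermin. With high-dose semaglutide, 343 of 14105 genes were called in either direction, and 1% of all genes were lower. Fat cell markers summed to 9.77 to 21.8 CPM with the combination and 14.02 to 36.1 CPM with high-dose zalfermin. The vehicle range was 27.4 to 50.2 CPM. Of the 3 tested, 2 were called lower with the combination, Cfd among them, and 0 higher. With high-dose zalfermin 1 of 3 was lower and 1 higher, and with high-dose semaglutide 0 of 3 were called. Mean Lipe was 19.9 CPM with vehicle and 12.7 CPM with the combination, and mean Adrb3 1.03 and 1.51 CPM. Adipoq and Lep had no read in any combination mouse. Whether any of these shifts contributed to the levels of the 5 genes was not tested.

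Adding a drug at its low dose to the other was compared directly. Against low-dose zalfermin, the combination had 2 of 5 genes lower, Fabp4 (log2 fold change -1.11, SE 0.24, edgeR adjusted p = 0.00224) and Mogat1 (-1.35, SE 0.26, edgeR adjusted p = 0.000724), with 3.35% of all genes lower. Against low-dose semaglutide, 3 of 5 were lower, Pparg (-0.60, SE 0.16, edgeR adjusted p = 0.0199), Fabp4 (-0.99, SE 0.24, edgeR adjusted p = 0.0087) and Mogat1 (-1.58, SE 0.26, edgeR adjusted p = 0.000111), with 2.28% of all genes lower. The Pparg call against low-dose semaglutide was lost without mouse 2 of that group (-0.51, adjusted p = 0.0674) or mouse 3 of the combination (-0.53, adjusted p = 0.0555), and with only the groups compared (-0.61, adjusted p = 0.0722). Pparg against low-dose zalfermin was not called (-0.47, SE 0.16, edgeR adjusted p = 0.0621) and was called in 4 of the 56 fits, without low-dose zalfermin mouse 1, combination mouse 2, high-dose zalfermin mouse 6 or low-dose semaglutide mouse 6 (adjusted p = 0.0351). Between the combination and low-dose zalfermin, DESeq2 called 3 of the 5 genes, and 1169 of all genes.

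Whether the combination differed from the sum of both low-dose effects was tested as an interaction on the log2 scale. None of the 5 genes was called by edgeR or by DESeq2, against 0.0142% of all genes by edgeR and 14 genes by DESeq2. An unadjusted p under 0.05 was seen for 1 of the 5 and for 952 of all 14105 genes. The 1 of the 5 was Mogat1, which was 1.17 log2 units below the sum (SE 0.36, unadjusted p = 0.00197, edgeR adjusted p = 0.415). For Fabp4 the interaction was -0.30 (95% interval -0.96 to 0.36), for Pparg -0.43 (-0.88 to 0.02), for Cd36 -0.14 (-0.55 to 0.26) and for Vldlr 0.03 (-0.55 to 0.62).

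Dose and drug were compared as well. High-dose against low-dose zalfermin lowered 1 of 5 genes, Mogat1 (log2 fold change -1.38, SE 0.27, edgeR adjusted p = 0.00258), with no overlap between the groups, as for 0.298% of all genes, and 1.4% of all genes were called lower. Pparg and Cd36 just missed the threshold in this comparison, at -0.55 (SE 0.16, edgeR adjusted p = 0.058) and -0.50 (SE 0.14, edgeR adjusted p = 0.0549), and were called without mouse 6 of low-dose semaglutide (adjusted p = 0.0265 and 0.0323). Between the zalfermin doses, DESeq2 called 3 of the 5 genes, and 368 of all genes. High-dose against low-dose semaglutide had 0 of 5 genes called by edgeR and 0 by DESeq2, 1 (Mogat1, log2 fold change -0.65, SE 0.25) at an unadjusted p under 0.05, and 0% of all genes called by edgeR and 0 genes by DESeq2 (2 without mouse 6 of low-dose semaglutide), with 549 at an unadjusted p under 0.05. High-dose zalfermin against high-dose semaglutide had 0 of 5 called by edgeR, 1 by DESeq2 (Mogat1, adjusted p = 0.0301) and 2 at an unadjusted p under 0.05. Of all genes, 0.447% were called by edgeR and 143 genes by DESeq2, and 1361 had an unadjusted p under 0.05. The values were -0.97 for Mogat1 (SE 0.27, edgeR adjusted p = 0.0833) and -0.51 for Pparg (SE 0.16, edgeR adjusted p = 0.158).

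The combination and high-dose zalfermin did not differ in any of the 5 genes past the threshold (0 called by edgeR, 0 by DESeq2, 0 at an unadjusted p under 0.05). Of all genes, 0.503% were called by edgeR and 176 genes by DESeq2, and 1544 had an unadjusted p under 0.05. The 95% intervals of the difference were -0.25 to 0.41 for Pparg, -0.09 to 0.49 for Cd36, -0.46 to 0.36 for Vldlr, -0.86 to 0.12 for Fabp4 and -0.53 to 0.59 for Mogat1. Against high-dose semaglutide, the combination had 1 of 5 genes lower, Mogat1 (-0.94, SE 0.26, edgeR adjusted p = 0.0473), with 1.03% of all genes lower. This call was lost in 36 of the 56 fits that each left out 1 mouse. Low-dose zalfermin and low-dose semaglutide differed in 0 of 5 genes by edgeR and 0 by DESeq2, with 0 at an unadjusted p under 0.05; of all genes, 0% were called by edgeR, 0 genes by DESeq2 (9 without mouse 6 of low-dose semaglutide), and 617 had an unadjusted p under 0.05.

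Set against chow-fed mice, Pparg was the one gene of the 5 that was not called with high-dose zalfermin or with the combination. Its log2 fold change against chow was 0.01 with high-dose zalfermin (95% interval -0.32 to 0.34) and 0.09 with the combination (-0.24 to 0.42), with edgeR adjusted p-values of 0.968 and 0.71. The other 4 genes remained above chow in both groups, where 19.7% (high-dose zalfermin) and 17.4% (combination) of all genes were called higher. In the remaining treated groups all 5 were higher than chow, against 21.3% of all genes (high-dose semaglutide), 25.1% (low-dose zalfermin) and 24.4% (low-dose semaglutide).

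Cd36 was 3.58-fold above chow with high-dose zalfermin and 4.11-fold with the combination, beside 5.28-fold with vehicle, and no mouse of either group reached the chow range. Groups without overlap, higher than chow, were seen for 4 of the 5 genes with high-dose zalfermin (all but Pparg) and 2.86% of all genes, and for 1 of 5, Cd36, with the combination and 1.26% of all genes. Mogat1 was 3.47-fold and 3.54-fold above chow in these groups, beside 12.1-fold with vehicle. Fabp4 was 2.91-fold and 2.24-fold above chow, beside 7.83-fold with vehicle. Vldlr was further from chow than with vehicle, at 2.55-fold and 2.46-fold beside 1.67-fold.

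**Figure D3:**
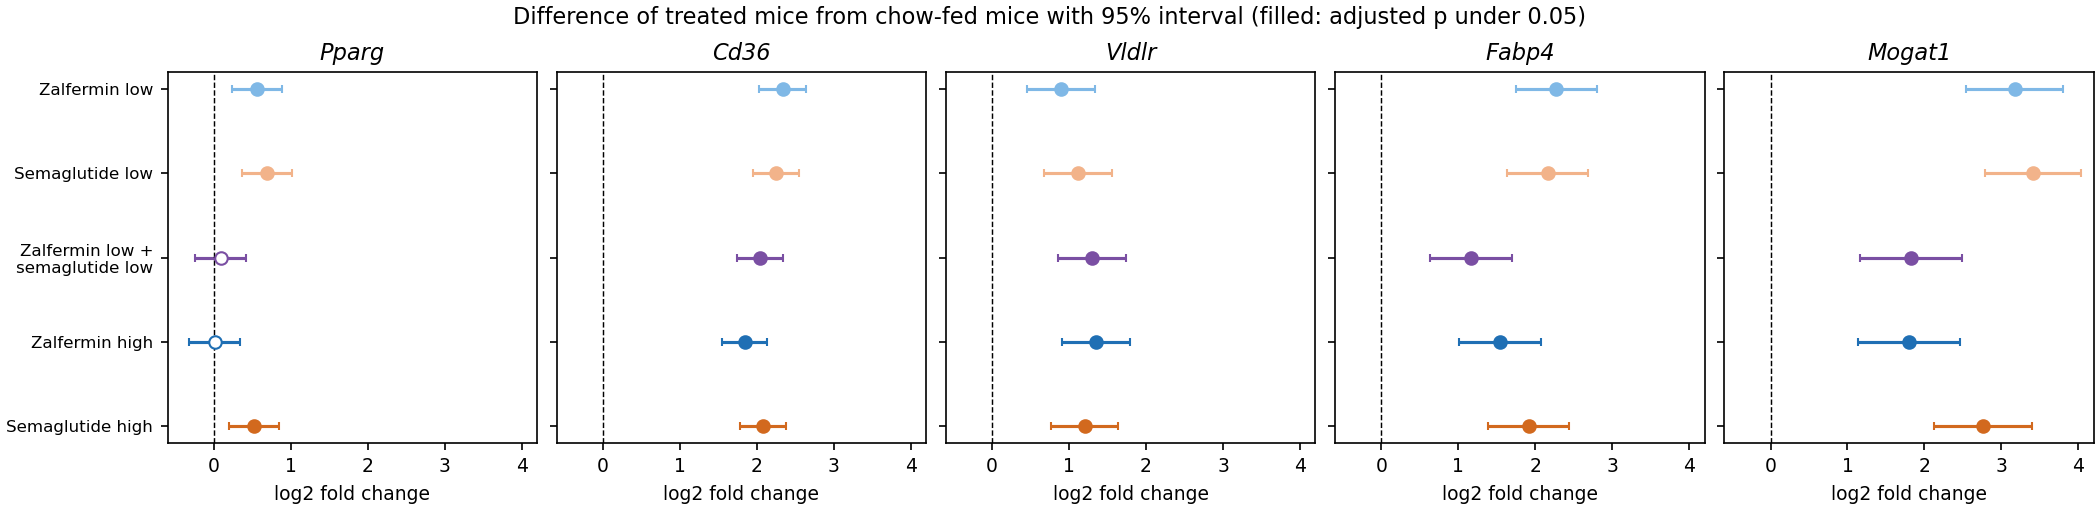
Each point is the log2 fold change of a treated group of 8 mice against the 8 chow-fed mice, with its 95% interval, on the same scale for all genes, and filled points have an edgeR adjusted p under 0.05. The open points are Pparg with the combination (0.09) and with high-dose zalfermin (0.01).

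The order of the group means was alike for Pparg, Cd36, Fabp4 and Mogat1 in that DIO-MASH vehicle was highest and chow-fed lowest, and Vldlr was highest with high-dose zalfermin. Neighbouring groups in the order differed past the threshold in 5 places among the 5 genes. For Cd36 and Mogat1 the step was from high-dose zalfermin to chow-fed (log2 difference 1.84 and 1.79, SE 0.15 and 0.33), for Fabp4 from the combination to chow-fed (1.17, SE 0.27) and for Vldlr from DIO-MASH vehicle to chow-fed (0.74, SE 0.22). For Mogat1 there was also a step from high-dose semaglutide to the combination (0.94, SE 0.26). No neighbouring groups differed past the threshold for Pparg, where the widest step was from high-dose semaglutide to the combination (0.43, SE 0.16, edgeR adjusted p = 0.171).

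Between mice of the same group, Pparg, Cd36, Fabp4 and Mogat1 correlated with each other by Pearson r, less clearly so by rank, and no correlation with Vldlr passed the threshold. After subtracting the group mean of log2 CPM, the 6 pairs among Pparg, Cd36, Fabp4 and Mogat1 had Pearson r of 0.317 to 0.441 over 56 mice, and all 6 had a permutation p adjusted over the 10 pairs under 0.05. By rank, 1 of the 6 held, Cd36 with Mogat1 (r = 0.407, adjusted permutation p = 0.0102; rho = 0.51, adjusted permutation p = 0.0017). That pair kept r = 0.365 without the 2 mice farthest from the median of Cd36. Pparg with Cd36 had r = 0.441 (adjusted permutation p = 0.0102) and rho = 0.155 (adjusted permutation p = 0.45), and r fell to 0.162 without mouse 6 of low-dose semaglutide and mouse 6 of high-dose zalfermin, so it rests on those mice. The 4 pairs with Vldlr had r of -0.2 to 0.103 and none passed. Without mouse 6 of low-dose semaglutide, 4 of the 6 pairs passed by Pearson r and 1 by rank.

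The genes most like each member in pattern were those with the highest Pearson r over the 7 group means of log2 CPM, among genes averaging 1 CPM or more, given as a description. For Pparg they were Sh3bgrl2, Atp9b and Naf1 (r = 0.9915 to 0.9955). For Cd36 they included Litaf (r = 0.999) and Lair1 (r = 0.998), an inhibitory collagen receptor known from leukocytes. For Fabp4 they were Loxl2, which cross-links collagen, Fbn1, a microfibril glycoprotein, and Smpd3, a sphingomyelinase (r = 0.998 to 0.9995). For Mogat1 they were Kif26a, Jam2 and Map4 (r = 0.996 to 0.998), and for Vldlr Xrcc5, Mfsd2a and Dock6 (r = 0.980 to 0.995), of which Mfsd2a carries lysophosphatidylcholine into cells. These groups share their mice and their library scaling, and 7 points leave many genes with a high r.

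Other genes of the same pathways were read from 5 lists. Among 12 PPARG target genes of fat storage, 9 were lower and 1 higher in chow-fed than in DIO-MASH vehicle mice, where 28.9% of all genes were lower and 26.5% higher, and their median log2 fold change was -1.05 beside -0.01 over all genes. Cidea and Cidec, which enlarge lipid droplets, and Plin4, a droplet coat protein, differed most, with log2 fold changes of -7.65 (SE 0.62), -4.86 (SE 0.50) and -3.16 (SE 0.43). Cidea had 0 to 8 reads in any chow-fed mouse and 398 to 775 in any vehicle mouse. The gene that went the other way, Retsat, a retinol saturase, was 0.64 higher (SE 0.18) and is named because of its value.

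In the combination, 4 of the 12 targets were lower than with vehicle and 1, Retsat, was higher (1.16, SE 0.18), beside 10.9% and 10% of all genes. Cidea, Cidec and Plin4 were again the most changed, with log2 fold changes of -4.92 (SE 0.47), -2.69 (SE 0.44) and -1.93 (SE 0.39), and the fourth was Plin2 (-0.67, SE 0.15). With high-dose zalfermin 4 were lower and 1 higher, beside 8.68% and 8.54% of all genes. With high-dose semaglutide, low-dose zalfermin and low-dose semaglutide 0 of 12 were called. Over all genes tested, 343, 66 and 0 were called in these groups against vehicle, so 0 of 12 does not set the targets apart. Lpl, the lipase that frees fatty acids from lipoproteins, was lower in chow-fed mice (-2.77, SE 0.28), and with the combination it was at -0.63 (SE 0.26, edgeR adjusted p = 0.0737), not called. Lpl and Plin2 lie outside the naming rule and were chosen after their values were seen.

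**Figure D4:**
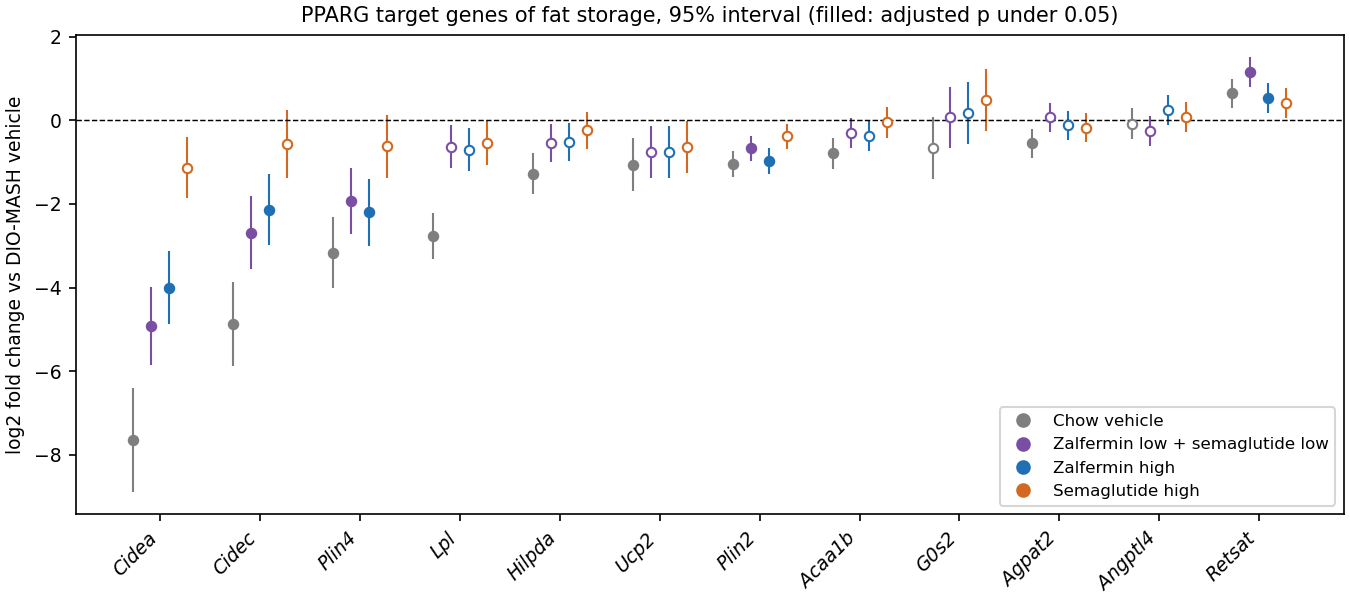
Each point is the log2 fold change of 1 PPARG target gene against the 8 DIO-MASH vehicle mice, with its 95% interval, in 4 groups of 8 mice, and filled points have an edgeR adjusted p under 0.05. The chow-fed group reaches -7.65 for Cidea, the combination -4.92, and the high-dose semaglutide points are all open. Of all genes, 1% were called lower with high-dose semaglutide.

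A list of 13 genes held retinoid X receptors, coregulators and the other nuclear receptors Ppara, Ppard and Nr1h3. Of these 13, 6 were higher and 1 lower in chow-fed than in vehicle mice, where 26.5% and 28.9% of all genes were. Their median log2 fold change was 0.20. Ppargc1b, a coactivator, was 1.03 higher (SE 0.30), Rxra, a dimer partner, 0.50 higher (SE 0.10) and Rxrg, another partner, 0.65 lower (log2 fold change -0.65, SE 0.18). In the combination 3 were higher and 0 lower (10% and 10.9% of all genes), namely Ppard (2.01-fold, SE 0.27 on the log2 scale), Ppargc1a (log2 fold change 0.78, SE 0.17) and Nr1h3 (0.32, SE 0.09). The Ppard call was lost without mouse 6 of the combination (log2 fold change 0.53, adjusted p = 0.0878). Ppara, the main PPAR of hepatocytes, was at -0.02 (SE 0.19) in chow-fed mice and was not called.

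Among 17 other fatty acid transport and binding genes, chow-fed mice had 4 higher and 7 lower, and 2 higher and 1 lower in the combination. For this list and the next 2, the background over all genes was 26.5% (higher) and 28.9% (lower) for chow-fed mice, and 10% and 10.9% for the combination, and most of these counts are close to it. Slc27a5, the liver's bile acid and fatty acid ligase, rose with the combination (0.86, SE 0.11), as did Got2 (0.24, SE 0.07). Slc27a6 (-1.88, SE 0.60) and Slc27a3 (-1.46, SE 0.40) were lower in chow-fed mice, at vehicle means of 0.673 and 1.09 CPM. Fabp3, the heart form of FABP, was called lower in both, but rested on 31 reads over the 8 vehicle mice, 2 over the chow-fed and 3 over the combination mice.

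Among 10 other lipoprotein receptors, chow-fed mice had 2 higher and 3 lower, and 2 higher and 0 lower in the combination. Sorl1 (-1.60, SE 0.23) was lower and Lrp1 (0.45, SE 0.13) higher in chow-fed mice, and Lrp8, close to Vldlr in sequence, was called lower from 3 reads over 8 chow-fed and 31 over 8 vehicle mice. Lsr (0.42, SE 0.11) and Scarb1 (0.38, SE 0.09) were higher in the combination. Among 12 other genes of triacylglycerol synthesis, chow-fed mice had 4 higher and 3 lower, and 2 higher and 2 lower in the combination. Lpin1, a phosphatidate phosphatase, was higher in both (1.61, SE 0.30, and 0.94, SE 0.30) and Gpat2 lower in both (-1.61, SE 0.23, and -0.65, SE 0.21), while Lpin3 was lower in the combination (-0.71, SE 0.23). In the combination, the Lpin1 call was lost without mouse 3 of that group (0.73, adjusted p = 0.0858) and the Gpat2 call without mouse 1 of the vehicle group (-0.57, adjusted p = 0.0549). Mogat2, the relative of Mogat1, was called 2.51 higher in chow-fed mice, but 1 of them, mouse 8, held 322 of the 357 reads, and without that mouse the value was -0.97 (adjusted p = 0.148).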

How the data were processed

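RNA was sequenced from terminal liver samples of 56 mice with a stranded mRNA kit. The authors deposited whole-number read counts per gene, not normalized. The study's methods name STAR and GRCm38, whereas the submitters' processing notes list Trim Galore 0.6.4 and Salmon 1.9.0; the program that made the counts is not given in the sources used here. Groups came from the treatment label of each sample. Each label carries its own animal number, so each sample was taken as 1 mouse, and every pair of samples differed in at least 13697 genes.

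A gene was tested if at least 3 mice had at least 5 reads of it. The main test was edgeR 4.0.16 (R 4.3.3), quasi-likelihood F test, two-sided, with TMM scaling, 1 fit of the 7 groups without covariates and Benjamini-Hochberg adjustment over the 14105 genes in each comparison (threshold 0.05). SE is the log2 fold change divided by the square root of F. On simulated data for combination against vehicle (13867 genes), 86% of 200 genes changed 2-fold were recovered and 6.52% of calls were false. The simulation gave every gene the same spread between mice and changed genes in 1 group only. In the data, the estimated coefficient of variation between mice was 32.1% for Fabp4 and 32.8% for Mogat1, beside 22.6% in common over genes. The simulated rates therefore need not hold for these genes. Alternatives were DESeq2 1.42.0, other scalings and filters, a covariate and fewer samples. Body weight, a covariate in some of the study's fits, is not in the labels. Pairs of genes were tested with 100000 permutations within groups (two-sided).

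The 5 genes and all lists were chosen with earlier results of these data known. Named genes are the 5, the 3 most alike in pattern to each, and the 3 most changed called genes of each list in chow-fed and in combination mice against vehicle. One gene named by this rule is not reported here.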

Additional observations from a re-analysis of the deposited data

Results flagged for a closer look

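Within the 35 sets of 8 mice (5 genes in 7 groups), 4 had a mouse farther from the rest of its group than Dixon's 95% critical value for a group of 8. Chance alone flags about 1 in 20 sets. In low-dose semaglutide, mouse 6 was lowest for Cd36, at 187.4 CPM with the next mouse at 328.3, and highest for Vldlr, at 16.77 CPM with the next at 11.62. This is the mouse whose profile correlated more with chow-fed mice than with its own group. In high-dose zalfermin, mouse 6 was lowest for Pparg, at 8.383 CPM with the next at 15.23. In the combination, mouse 4 was highest for Mogat1, at 7.069 CPM with the next at 3.801.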

How the results depend on the processing

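Of the values of single genes, 757 kept their direction and their side of the threshold under the alternatives that kept every mouse or, with DESeq2, left out mouse 6 of low-dose semaglutide, 28 passed it only there, 11 passed it only in the fit reported and 4 changed direction. The 4 were all near 0: Mogat1 in the combination against high-dose zalfermin without TMM (-0.0184), Pparg in high-dose zalfermin against chow with a stricter filter, 10 reads in at least 8 mice (-0.0219), and, by DESeq2 without mouse 6 of low-dose semaglutide, Pparg in low-dose semaglutide against vehicle (0.0542) and Cd36 between the low doses (-0.0011). Without TMM the median log2 fold change of all genes against vehicle moved to -0.47 in chow-fed, -0.25 in combination and -0.21 in high-dose zalfermin mice.

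Counts of called genes among the 5 moved by more than 1.5 times in 4 comparisons. High-dose semaglutide against vehicle went from 1 to 2 by DESeq2 (with or without mouse 6 of low-dose semaglutide), without TMM, with the stricter filter and with only the groups compared. The combination against high-dose semaglutide went from 1 to 0 with DESeq2 size factors, without a filter and with only the groups compared, and to 2 without TMM and by DESeq2 without that mouse. High-dose against low-dose zalfermin went from 1 to 3 by DESeq2 (with or without that mouse), without TMM and with the stricter filter, and to 2 with only the groups compared. High-dose zalfermin against high-dose semaglutide went from 0 to 1 by DESeq2, without TMM and with only the groups compared, and to 2 by DESeq2 without that mouse. The calls over all genes in these settings are given in the same order. For high-dose semaglutide against vehicle they went from 343 to 516, 651, 352, 340 and 383. For the combination against high-dose semaglutide they went from 266 to 260, 216, 126, 504 and 490. For high-dose against low-dose zalfermin they went from 260 to 368, 448, 407, 285 and 391. For high-dose zalfermin against high-dose semaglutide they went from 63 to 143, 128, 54 and 213. The causes were not tested. The DESeq2 fit without that mouse, and leaving out each mouse for the genes of the lists, were chosen after seeing the data.

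With each mouse left out in turn, these counts ranged from 1 to 2, 0 to 2, 1 to 4 and 0 to 1 in the same order. Smaller moves, over the alternatives and over the fits that left out a mouse alike, were 3 to 5 for the combination against vehicle (4 reported), 4 to 5 for high-dose zalfermin against vehicle (5 reported), and 2 to 3 for the combination against low-dose zalfermin (2 reported) and against low-dose semaglutide (3 reported). The direction turned in some of these fits, over ranges of -0.1164 to 0.007 for Cd36 in low-dose zalfermin and -0.1255 to 0.0594 for Pparg in low-dose semaglutide against vehicle. Against high-dose zalfermin, the combination ranged from -0.0142 to 0.1486 for Pparg, -0.3355 to 0.1683 for Mogat1 and -0.1365 to 0.0721 for Vldlr, and against high-dose semaglutide from -0.119 to 0.0234 for Cd36. Fabp4 between the low doses ranged from -0.028 to 0.21, Pparg in high-dose zalfermin against chow from -0.048 to 0.1011, and the interaction of Vldlr from -0.0631 to 0.1713. No paired analysis was possible because the labels give no replicate numbers shared between groups. Animal numbers fall into 4 series, 3 of which hold all 7 groups, and the series as a covariate changed 1 call of the 5 genes, Vldlr in the combination against vehicle (0.51, adjusted p = 0.0786). Low counts limit Mogat1 in chow-fed mice (1 to 16 reads), with high-dose zalfermin (16 to 49) and with the combination (11 to 114). They also limit Fabp4 in chow-fed mice (21 to 51 reads) and Vldlr (26 to 228 reads per mouse).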
